A study of Mus musculus with 8 samples.

Results

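The genes described here copy the genome or carry a cell from G1 into S phase, and were given as a list of 38 names. A gene was counted where a probe set carried its symbol and no other, which held for 36 of the 38, out of 12394 such genes on the array. Gins2 and Chaf1a had no probe set of their own, and the other 36 genes had 66. A further 5 genes (Cdc6, Orc1, Pole, Tyms and E2f1) were too dim to be tested, so 31 members entered the tests beside 8094 genes in all. The members were sorted by role into 8 groups: origin licensing, helicase activation, polymerases and primase, the sliding clamp with its loader and single-strand binding, Okazaki fragment joining, nucleotide supply, G1/S control, and the copying of chromatin and methylation.

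Small intestine came from female C57/Black6 mice aged 6 weeks that were injected intraperitoneally each day for 5 days, and every group was treated for the same time. The vehicle group received dimethyl sulfoxide alone, the dexamethasone group the synthetic glucocorticoid at 15 mg/kg, the DBZ group 10 umol/kg of DBZ, an inhibitor of gamma-secretase, and the combination group both drugs at these doses. The labels list 2 samples for each of the 4 groups, but the DBZ columns held the same value in 22684 of 22690 probe sets and were counted as 1 array, which left 7. Total RNA of unfractionated tissue was hybridised to Affymetrix arrays, and the segment of intestine is not named.

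Cells prepare to replicate by loading the ring-shaped MCM helicase at origins in G1, with the origin recognition complex, Cdc6 and Cdt1. When cyclin E with its kinase acts on the retinoblastoma proteins, E2F factors are released and drive the genes for helicase, polymerases, clamp and nucleotide supply. In the intestinal epithelium S phase is confined to the crypts, where stem cells and transit-amplifying progenitors divide. Notch signalling, which gamma-secretase inhibitors block, is known to keep crypt progenitors dividing, and its loss turns them towards secretory fates.

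Promoter sequences are shown because E2F sites are the known common element of these genes, and because the members that moved include promoters with and without such a site. RefSeq promoters (GRCm38.p6, 250 bases before to 50 after the transcript start) were at hand for 32 listed genes. The letters TTTCGCGC, TTTGGCGC, TTTCCCGC and TTTGCCGC were searched on both strands, and overlapping matches were each counted. They occurred in 13 of the 32 genes (40.6%), against 2.6% of 27025 genes in the promoter table, 4.96% of the tested genes there and 31.4% of 51 other replication pathway genes. Matches were found for Cdc6, Cdt1, Dnmt1, Lig1, Mcm3, Mcm5, Mcm6, Mcm7, Orc1, Pola1, Pold1, Rfc3 and Uhrf1. Of other cell cycle motifs, CCAAT was present in 18 of 32 (56.2%) against 41.1% of all and 43.1% of tested genes, and TTTGAA, the core of the CHR element of later cell cycle genes, in 3 (9.38%) against 20.2% of all and 14.3% of tested genes. These 2 motifs were searched the same way. The capitals below mark E2F matches, read in the direction of transcription. Uhrf1, Rrm1 and Mcm2 are shown as members that fell with DBZ, and Mcm6 and Rfc3 as members with several matches. A match is a description of the letters and no evidence of binding.
Uhrf1 (chr17:56304063-56304362, plus strand): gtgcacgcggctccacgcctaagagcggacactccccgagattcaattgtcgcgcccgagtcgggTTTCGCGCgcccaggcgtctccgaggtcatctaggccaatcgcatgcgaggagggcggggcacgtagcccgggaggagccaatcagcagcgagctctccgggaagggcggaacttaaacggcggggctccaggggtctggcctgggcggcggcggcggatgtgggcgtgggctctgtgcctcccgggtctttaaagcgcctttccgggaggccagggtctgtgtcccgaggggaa
Mcm6 (chr1:128359656-128359955, minus strand): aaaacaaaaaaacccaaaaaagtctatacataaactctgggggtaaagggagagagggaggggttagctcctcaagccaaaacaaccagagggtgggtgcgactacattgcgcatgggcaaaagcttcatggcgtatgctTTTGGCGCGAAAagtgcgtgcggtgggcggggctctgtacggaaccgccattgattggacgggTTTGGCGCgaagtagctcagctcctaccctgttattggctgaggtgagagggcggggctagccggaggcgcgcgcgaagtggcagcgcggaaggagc
Rfc3 (chr5:151651159-151651458, minus strand): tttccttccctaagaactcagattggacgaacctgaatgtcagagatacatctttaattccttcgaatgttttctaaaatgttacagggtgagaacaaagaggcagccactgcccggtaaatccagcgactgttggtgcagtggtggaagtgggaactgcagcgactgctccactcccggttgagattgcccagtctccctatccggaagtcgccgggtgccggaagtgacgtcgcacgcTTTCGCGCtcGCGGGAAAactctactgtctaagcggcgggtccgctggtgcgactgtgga
Mcm2 (chr6:88898731-88899030, minus strand): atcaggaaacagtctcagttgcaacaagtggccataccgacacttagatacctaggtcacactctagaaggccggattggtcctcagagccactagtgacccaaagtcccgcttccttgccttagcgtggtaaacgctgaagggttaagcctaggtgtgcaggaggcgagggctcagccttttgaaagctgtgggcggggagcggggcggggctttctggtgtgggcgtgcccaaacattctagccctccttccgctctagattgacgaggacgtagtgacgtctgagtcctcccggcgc
Rrm1 (chr7:102441445-102441744, plus strand): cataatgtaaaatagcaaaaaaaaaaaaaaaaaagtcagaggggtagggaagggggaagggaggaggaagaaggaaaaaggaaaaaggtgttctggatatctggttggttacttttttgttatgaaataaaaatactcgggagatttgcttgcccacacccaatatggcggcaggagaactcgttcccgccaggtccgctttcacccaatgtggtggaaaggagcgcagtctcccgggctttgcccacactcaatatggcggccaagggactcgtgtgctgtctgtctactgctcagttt
The Uhrf1 match begins at position -185, counted with the first transcribed base as 0, and a second Uhrf1 promoter in the table has none. In Mcm6 the matches begin at -110, -106 and -47, the first pair overlapping, and in Rfc3 at -10 and 0. The Mcm2 and Rrm1 windows hold no match to these letters, although Mcm2 and Rrm1 were among the members with the clearest fall. Members that passed the test were thus found with a match (Uhrf1, Cdt1) and without one (Mcm2, Rrm1, Rfc4, Rrm2).

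Values are MAS5 signals scaled so that all arrays have one trimmed mean, and changes are on the log2(signal + 12.3) scale, which understates the change of dim genes. Each change is given ± SE, and tests are 2-sided limma tests with Benjamini-Hochberg adjustment over 13638 probe sets at 0.05. A gene is read from its brightest probe set unless another is named. "Rose" and "fell" are used of results past that threshold. Nothing in the labels beyond the replicate numbers and the stated group sizes says how samples were made, so p measures the spread between these arrays. The lone DBZ array was taken to vary like the other groups. Ranked correlation over probe sets was 0.950 to 0.960 within groups, 0.925 to 0.940 between vehicle and treated arrays and 0.940 to 0.959 between treated groups. Both vehicle arrays had been deposited at a trimmed mean of 500 and all others at 250, for a reason that is not stated. Treatment and whatever went with this difference in scale cannot be told apart in any comparison with vehicle. The DBZ array had the highest 3'/5' ratio of the control transcripts, 1.80 for Gapdh against 0.905 to 1.22 in the others and 2.17 for actin against 1.22 to 1.79. Epithelial markers were strong in every array, with all 12 measured enterocyte genes above the signal limit. The ileal bile acid binding gene Fabp6 read 0.640 and 1.22 with vehicle, and between 1116 and 11866 elsewhere.

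With DBZ, all 31 tested members were lower than with vehicle, with a median log2 change of -0.71 against -0.02 for all genes tested. Lower values were seen in 51.5% of all genes. The fall passed the test for 4 members, while no member rose: Uhrf1, Rrm1, Rfc4 and Mcm2. Called falls made up 3.89% of all genes. An unadjusted p under 0.05 was reached by 16 of the 31, all lower, and by 2078 of the 8094 genes in either direction. In 29 members the DBZ array lay below both vehicle arrays, as did 41.4% of all genes. In a bulk sample, fewer cycling cells and less of each RNA per cycling cell cannot be told apart.

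**Figure D1:**
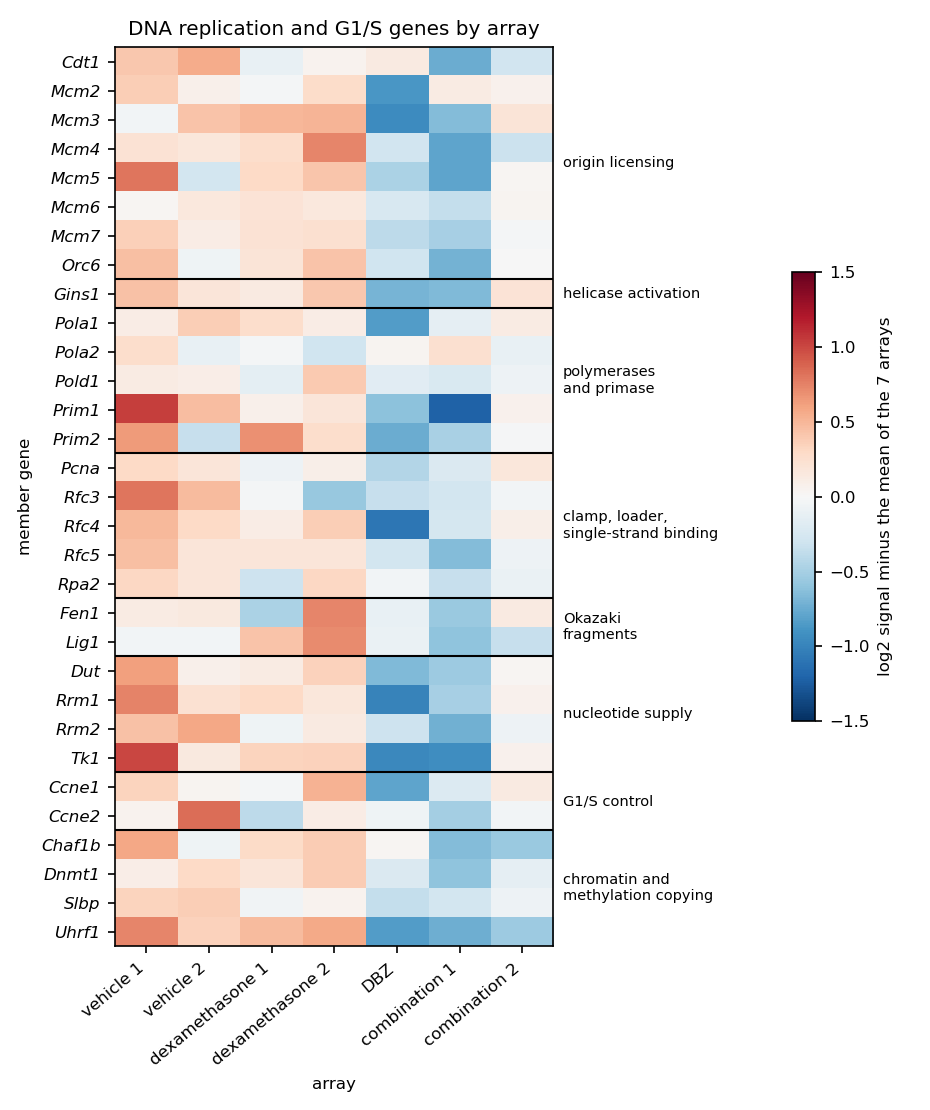
Each cell is the log2 signal of a tested member in an array minus that member's mean over the 7 arrays, with members in rows by role and arrays in columns; red is above and blue below the mean. The DBZ and combination 1 columns are blue in most rows, with member medians of -0.36 and -0.54, while combination 2 stays near white at -0.01.

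**Figure D2:**
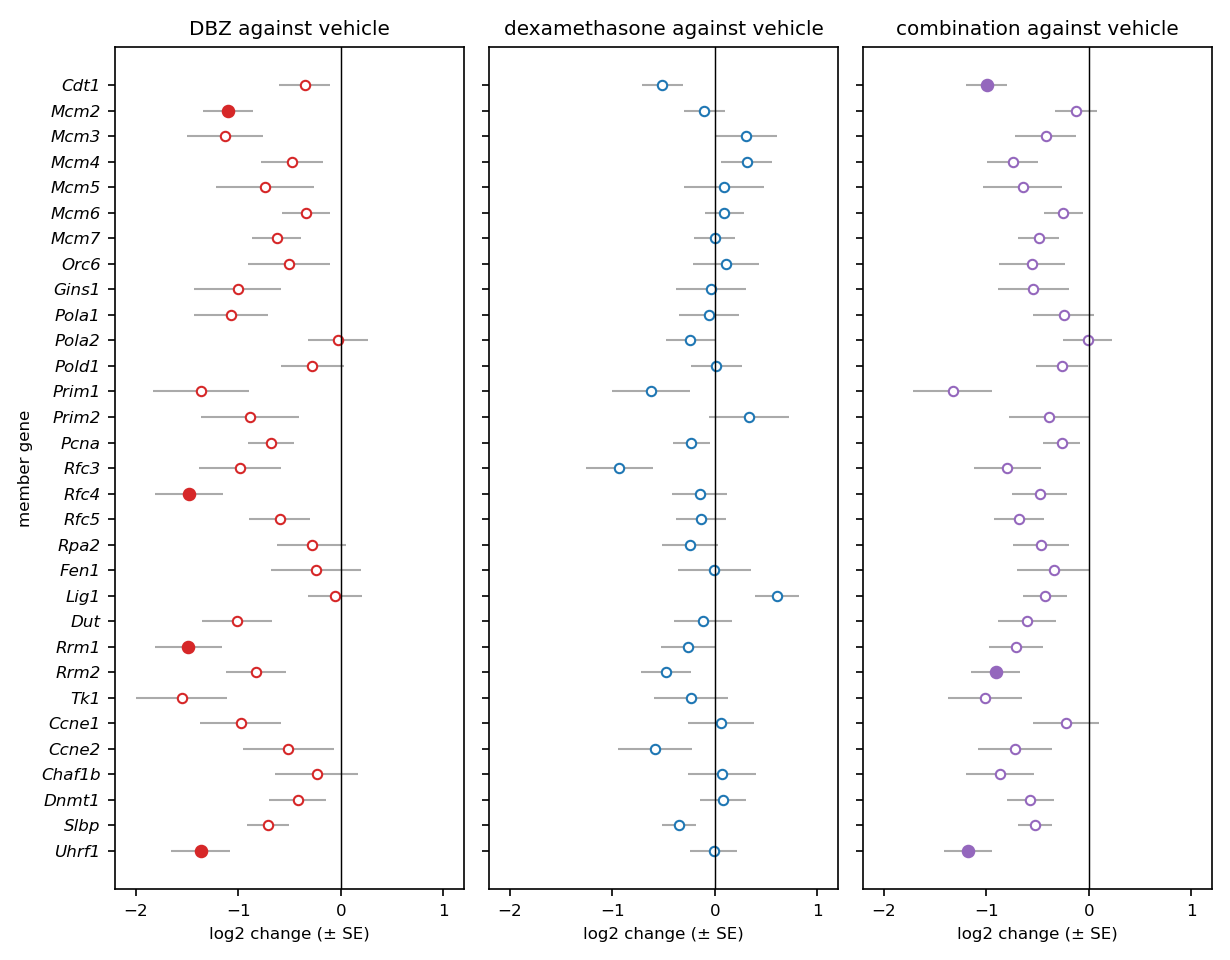
Points are log2 changes against vehicle for the 31 tested members, bars are the SE, and filled points passed the adjusted threshold. All 31 points lie below 0 for DBZ and for the combination, and 20 of 31 for dexamethasone.

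Uhrf1 recognises hemimethylated DNA behind the fork and brings the maintenance methyltransferase Dnmt1 to it. Its signal was 196 and 146 with vehicle, 162 and 174 with dexamethasone, 58.1 in the DBZ array, and 63.2 and 73.4 in the combination. Every array that had received DBZ was below every array that had not. Uhrf1 fell by 1.37 ± 0.28 with DBZ (limma adjusted p = 0.0215) and by 1.18 ± 0.23 in the combination (adjusted p = 0.0170), and it was the only tested member called in both by its brightest probe set. Dexamethasone alone gave a difference of -0.01. Without vehicle 1 the DBZ change was -1.17 and the combination change -0.98, and neither call held; the combination call also ended without either combination array. Dnmt1 itself differed by -0.42 with DBZ and -0.57 in the combination by its brightest probe set, neither past the test. By 1422946_a_at, Dnmt1 read 204 and 216 with vehicle, 150 and 188 with dexamethasone, 93.6 with DBZ, and 95.5 and 142 in the combination. The gap between vehicle and DBZ was larger by that probe set, which passed in neither comparison.

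Slbp binds the stem-loop of replication-dependent histone mRNAs, and Chaf1b is a subunit of the histone chaperone that follows the fork. Slbp read 629 and 641 with vehicle, 478 and 513 with dexamethasone, 383 in the DBZ array, and 407 and 470 in the combination. Its differences from vehicle were -0.71 ± 0.20 with DBZ (limma adjusted p = 0.0601) and -0.53 ± 0.17 in the combination (adjusted p = 0.0898). It thus lay below vehicle in every treated array, those given dexamethasone alone included, without passing. Chaf1b behaved otherwise, at 65.3 and 37.3 with vehicle, 40.3 with DBZ, and 20.6 and 22.7 in the combination. Its DBZ value was inside the vehicle range, and its combination values were below it. In the chromatin group the medians over 4 tested members were -0.57 with DBZ, 0.03 with dexamethasone and -0.72 in the combination.

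Nucleotide supply had the lowest median of the 8 groups with DBZ, -1.25 over 4 tested members, beside -0.25 with dexamethasone and -0.81 in the combination. Rrm1, the large subunit of ribonucleotide reductase, gave 236 and 161 with vehicle, 169 and 154 with dexamethasone, 61.7 with DBZ, and 92.1 and 142 in the combination. The DBZ array was the lowest, and both combination arrays were below both vehicle arrays. Rrm1 fell by 1.49 ± 0.32 with DBZ (limma adjusted p = 0.0251), a call that ended without vehicle 1 at -1.23. In the combination it differed by -0.71 and did not pass.

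Rrm2, the small subunit, whose level limits the enzyme in S phase, read 276 and 306 with vehicle, 191 and 222 with dexamethasone, 158 with DBZ, and 117 and 190 in the combination. By this probe set, 1434437_x_at, both vehicle arrays were above the other 5. Rrm2 fell by 0.91 ± 0.24 in the combination (limma adjusted p = 0.0499), at the edge of the threshold. It did not stay past it under most other settings, among them quantile normalisation and the removal of any single array except the DBZ array. By 1448226_at, Rrm2 read 86.3 and 79.4 with vehicle and 31.5 and 83.9 in the combination. By 1416120_at it read 97.1 and 15.9 with vehicle, 67.9 and 75.3 with dexamethasone, and 35.7 and 9.46 in the combination. In neither were both vehicle arrays above all the others. Thymidine kinase Tk1 showed the largest DBZ difference that did not pass, -1.55 ± 0.44 (limma adjusted p = 0.0589), with 258 and 136 for vehicle against 56.1. The vehicle arrays differed widely between themselves, and the DBZ array was below both. Dut, which removes dUTP, differed by -1.01 with DBZ. A probe set shared by Tyms and its pseudogene read 127 and 67.7 with vehicle, 33.4 with DBZ, and 58.5 and 85.7 in the combination, and was left out because it carries 2 symbols.

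**Figure D3:**
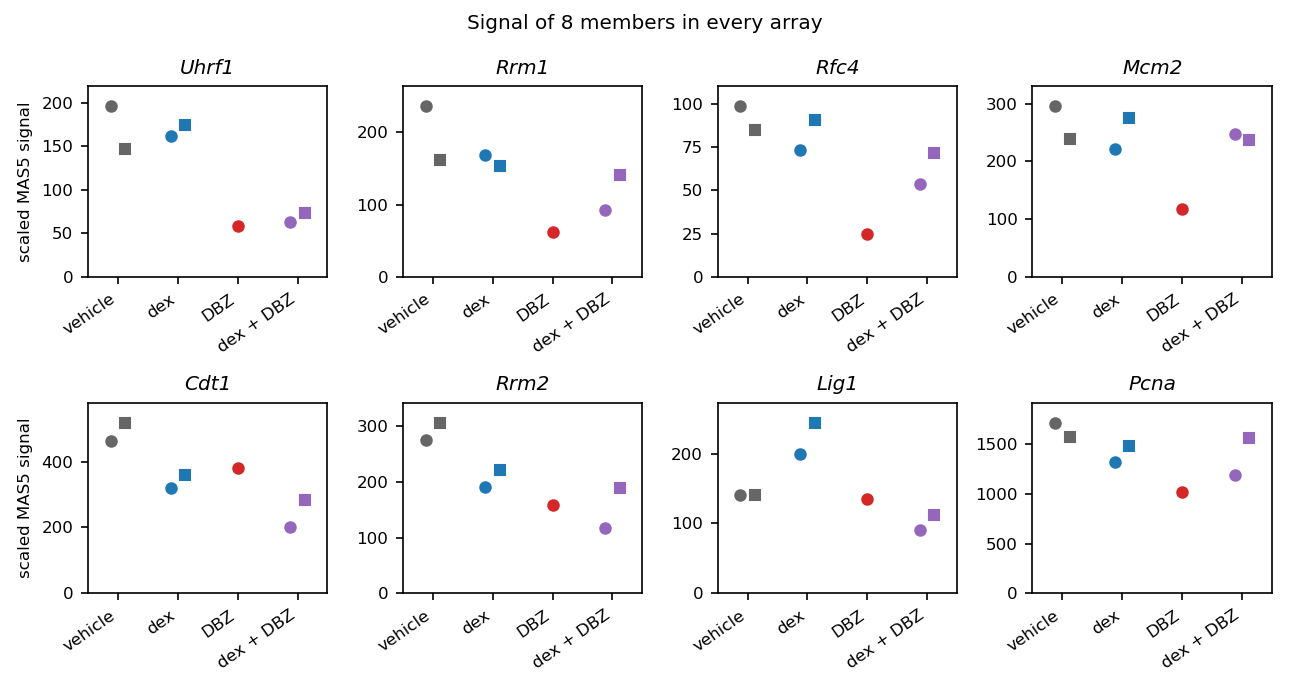
Scaled MAS5 signal (linear axis from 0) of 8 members in each of the 7 arrays, grouped by treatment; circles are replicate 1 or the lone DBZ array and squares replicate 2. Uhrf1 is low in all 3 arrays given DBZ, at 58.1 to 73.4, whereas Mcm2 is low only in the DBZ array, at 117.

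Origin licensing held 8 tested members, with medians of -0.56 with DBZ, 0.09 with dexamethasone and -0.52 in the combination. Mcm2, a subunit of the replicative helicase, gave 295 and 239 with vehicle, 221 and 275 with dexamethasone, 117 with DBZ, and 248 and 237 in the combination. The DBZ array stood alone, and the other 3 groups overlapped. Mcm2 fell by 1.10 ± 0.25 with DBZ (limma adjusted p = 0.0281), while the combination differed from vehicle by -0.13. The DBZ call ended without vehicle 1, combination 1 or combination 2. The other helicase subunits differed from vehicle by -1.13 (Mcm3), -0.47 (Mcm4), -0.74 (Mcm5), -0.34 (Mcm6) and -0.63 (Mcm7) with DBZ, none past the test by its brightest probe set. Other probe sets of Mcm3 and Mcm4 passed and are given further on.

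Cdt1, which brings the helicase to origins and is destroyed once S phase starts, showed another order by its brightest probe set. That probe set read 464 and 518 with vehicle, 320 and 361 with dexamethasone, 381 with DBZ, and 203 and 282 in the combination. Vehicle was highest and the combination lowest, without overlap between them. Cdt1 fell by 1.0 ± 0.20 in the combination (limma adjusted p = 0.0185), and the call ended without vehicle 2, combination 1 or combination 2. With either drug alone it differed by -0.35 (DBZ) and -0.51 (dexamethasone) and did not pass. The other tested probe set, 1424144_at, did not show this order. It read 221 and 260 with vehicle, 149 and 142 with dexamethasone, 79.4 with DBZ, and 101 and 128 in the combination. By that probe set Cdt1 fell with DBZ, as given further on. Orc6, an origin recognition complex subunit, differed by -0.50 with DBZ and -0.56 in the combination. Of the licensing genes not tested, Cdc6 ranged from 12.8 to 38.7 over the arrays and Orc1 from 8.29 to 38.8.

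Among polymerases and primase the 5 tested members had medians of -0.89 with DBZ, -0.06 with dexamethasone and -0.26 in the combination, and none was called. Prim1, the catalytic primase subunit, read 231 and 151 with vehicle, 113 and 121 with dexamethasone, 65.2 with DBZ, and 38.6 and 112 in the combination. By this probe set, 1418369_at, vehicle was above all others, and the combination arrays lay on either side of the DBZ array. Its differences were -1.36 ± 0.47 with DBZ (limma adjusted p = 0.102) and -1.33 ± 0.38 in the combination (adjusted p = 0.0664). The latter was -0.68 without combination 1 and -1.97 without combination 2, where it passed. By 1449061_a_at, Prim1 read 101 and 65.1 with vehicle, 68.1 and 66.5 with dexamethasone, 37.0 with DBZ, and 38.8 and 55.0 in the combination. There vehicle 2 was below both dexamethasone arrays, and both combination arrays were above the DBZ array. Prim2, the other primase subunit, read 75.3 and 31.9 with vehicle, 78.6 and 55.5 with dexamethasone, 21.4 with DBZ, and 28.0 and 43.6 in the combination. Its DBZ difference of -0.89 is the median of the group. Pola1, the catalytic subunit of polymerase alpha, differed by -1.07 with DBZ, but its partner Pola2 by only -0.03. Pold1, of the lagging-strand polymerase, differed by -0.28. Pole, of the leading-strand polymerase, was not tested and ranged from 2.30 in the DBZ array to 48.0. Gins1, of the complex that activates the helicase, differed by -1.01 with DBZ and -0.54 in the combination and passed in neither.

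The clamp group had 5 tested members and medians of -0.68 with DBZ, -0.23 with dexamethasone and -0.48 in the combination. Rfc4, a subunit of the clamp loader, gave 98.7 and 85.3 with vehicle, 73.5 and 90.6 with dexamethasone, 25 with DBZ, and 53.8 and 71.7 in the combination. The DBZ array was far the lowest, and the combination was below vehicle without overlap. Rfc4 fell by 1.48 ± 0.33 with DBZ (limma adjusted p = 0.0267), a call that ended without vehicle 1 or vehicle 2, and differed by -0.48 in the combination. Pcna, the sliding clamp itself, read 1714 and 1574 with vehicle, 1321 and 1483 with dexamethasone, 1019.8 with DBZ, and 1193 and 1559 in the combination. Its DBZ difference of -0.68 ± 0.22 did not pass (adjusted p = 0.0874). Rfc5 and Rpa2, of the loader and of the single-strand binding complex, differed by -0.60 and -0.29 with DBZ.

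By the brightest probe sets, Okazaki fragment joining had the smallest DBZ difference of the groups, a median of -0.15. It holds Fen1, the flap nuclease, and Lig1, the ligase that seals the nicks. The ranking depends on the Fen1 probe set used, 1436454_x_at, at 282 and 286 with vehicle and 239 with DBZ. Another, 1421731_a_at, read 102 and 74.8 with vehicle and 27.4 with DBZ, and fell past the test. Lig1 gave 141 and 140.3 with vehicle, 200 and 244 with dexamethasone, 135 with DBZ, and 91.1 and 112 in the combination. The dexamethasone arrays were the highest, and the combination arrays the lowest. Lig1 differed from vehicle by 0.61 ± 0.21 with dexamethasone (limma adjusted p = 0.0984) and the combination from dexamethasone by -1.04 ± 0.21 (adjusted p = 0.188), neither past the test. On the signals as deposited, where the vehicle arrays are at double scale, the dexamethasone difference of Lig1 turns to -0.33. For G1/S control, Ccne1 and Ccne2 encode the E cyclins that start S phase, and they differed by -0.98 and -0.51 with DBZ and by -0.22 and -0.72 in the combination. E2f1 was not tested, and its brighter probe set ranged from 6.41 to 44.4.

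Dexamethasone alone left the members without a shared direction. Of the 31, 20 were lower and 11 higher than vehicle, against 47.9% of all genes lower, and the median was -0.06 against 0.02 for all genes. By the limma test 0 members fell and 0 rose, while 5.29% of all genes fell and 6.93% rose. At an unadjusted p under 0.05 there were 2169 of the 8094 genes and 3 members: Rfc3, another clamp loader subunit, at -0.93 ± 0.32 (adjusted p = 0.0965), Lig1, and Cdt1 at -0.51 ± 0.20 (adjusted p = 0.135). Rfc3 read 83.2 and 63.8 with vehicle and 41.5 and 24.9 with dexamethasone, and 30.8 with DBZ. Its dexamethasone difference was -0.24 without vehicle 1 and -1.20 without dexamethasone 1. By its other tested probe set, 1432538_a_at, Rfc3 read 55.8 and 50.3 with vehicle and 45.4 and 36.5 with dexamethasone. That is a smaller gap between these groups than by the brightest probe set.

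In the combination all 31 members were again lower than with vehicle, against 55.3% of all genes, with a median of -0.54 against -0.05. The comparisons with DBZ alone and with dexamethasone alone share the same vehicle arrays. Uhrf1, Cdt1 and Rrm2 fell, 0 rose, and 13 members had an unadjusted p under 0.05, beside 1962 of the 8094 genes. Called falls made up 3.5% of all genes. The combination lay below vehicle without overlap in 20 members and in 31.1% of all genes. Without combination 1 there were 0 calls and the median was -0.31, and without combination 2 the median was -0.84 and the single call was Prim1 at -1.97. Without vehicle 1 the call of Cdt1 alone held, and without vehicle 2 that of Uhrf1 alone.

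Against DBZ alone, the combination was higher in 20 of the 31 members and lower in 11, with a median of 0.09 against -0.03 for all genes. It was above the DBZ array without overlap in 14 members, against 33.5% of all genes. By limma 0 members were called in either direction, beside 0.0371% of all genes lower and 0.0741% higher, and 5 had an unadjusted p under 0.05, beside 765 of the 8094 genes. The median was -0.06 without combination 2 and 0.30 without combination 1, so its direction rested on combination 2. The largest of the 5 were Rfc4 at 1.0 and Mcm2 at 0.97 ± 0.25 (limma adjusted p = 0.162), and the one lower value was Cdt1 at -0.65. Against dexamethasone alone, 29 members were lower, beside 59.9% of all genes, with a median of -0.49 against -0.07. The combination was below both dexamethasone arrays in 20 members and in 28.6% of all genes. Limma called 0 members and 0.0124% of all genes lower, with 9 members at an unadjusted p under 0.05 beside 828 of the 8094 genes. The 9 were led by Uhrf1 at -1.16 ± 0.23 (adjusted p = 0.172) and Mcm4 at -1.05 ± 0.25 (adjusted p = 0.217). That median rested on combination 1 and was -0.17 without it.

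DBZ compared directly with dexamethasone gave 28 members lower, against 53.2% of all genes, and a median of -0.62 against -0.03. The DBZ array was below both dexamethasone arrays in 25 members and in 41.6% of all genes. By limma 0 members were called on their brightest probe sets, beside 0.111% of all genes lower, and 14 had an unadjusted p under 0.05, all lower, beside 1080 of the 8094 genes in either direction. Uhrf1 at -1.35 had adjusted p = 0.0890. This comparison and the one between the combination and dexamethasone involve no vehicle array.

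The interaction asks whether the change with DBZ differed in the presence of dexamethasone, and positive values mean a smaller fall or a larger rise with dexamethasone present. It was positive for 23 members and negative for 8, with a median of 0.26 against -0.05 for all genes. By limma 0 members were called by their brightest probe set, while 2.09% of all genes were called lower and 1.75% higher, and 5 members had an unadjusted p under 0.05, beside 1626 of the 8094 genes. Without combination 2 the median was 0.02, and without dexamethasone 2, the highest, 0.41. The 5 were Rfc4 at 1.15, Mcm2 at 1.07, Rrm1 at 1.04, Pcna at 0.64 and, in the other direction, Lig1 at -0.98.

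Array by array, the members were lowest in the DBZ array or in combination 1. The DBZ array was the lowest of 7 in 13 members (18.2% of all genes) and combination 1 in 16 (14.5% of all genes). Dexamethasone 2 was the lowest for the other 2 members, Pola2 and Rfc3. The highest array was vehicle 1 in 16 members (21.1% of all genes) and dexamethasone 2 in 8 (10.5% of all genes). Combination 2 was neither lowest nor highest for any member. It exceeded combination 1 in 29 of 31 members, with a median difference of 0.47, and vehicle 1 exceeded vehicle 2 in 22, with a median difference of 0.25. The member medians relative to the mean of all arrays were 0.37 and 0.18 for vehicle, 0.14 and 0.32 for dexamethasone, -0.36 for DBZ, and -0.54 and -0.01 for the combination.

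**Figure D4:**
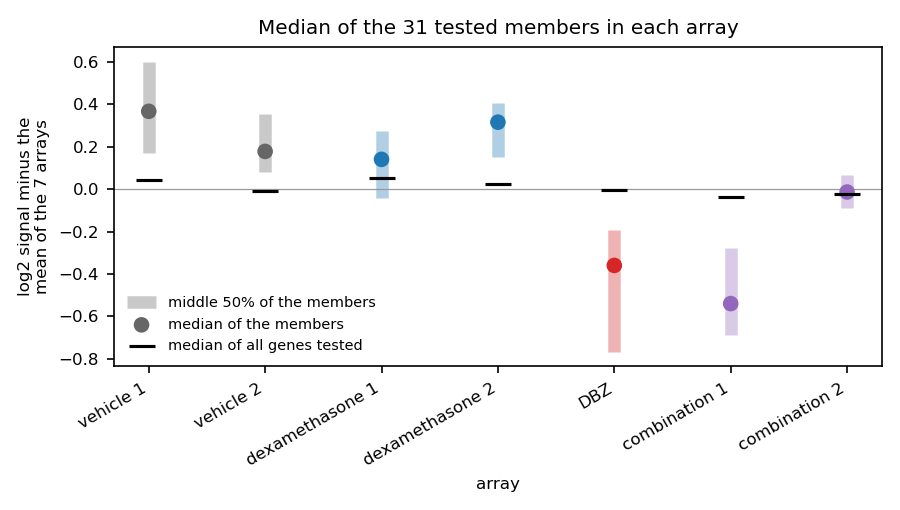
Circles are the median over the 31 tested members of log2 signal minus the mean of the 7 arrays, shaded bars span the quartiles of the members, and black dashes are the median over all genes tested. The DBZ array (-0.36) and combination 1 (-0.54) lie below the others, and combination 2 (-0.01) lies with the all-gene median.

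Several members were read by more than 1 probe set, and these often gave changes of unequal size. The tested members had 50 tested probe sets, 19 of them beyond the brightest and spread over 15 genes. In DBZ against vehicle all 50 were lower and 9 passed the test. Of all genes by their brightest probe sets, 51.5% were lower there and 3.89% fell. In the combination against vehicle 48 of the probe sets were lower and 6 passed, beside 55.3% of all genes lower and 3.5% falling. For Rrm1, the probe set 1448127_at read 124 and 114 with vehicle, 104 and 83.3 with dexamethasone, 12.7 with DBZ, and 90.8 and 71.9 in the combination. For Mcm3, 1449705_x_at read 89.6 and 132 with vehicle, 89.8 and 122 with dexamethasone, 10.00 with DBZ, and 81.0 and 111 in the combination. In both the DBZ array stood far below the other 6 and was dimmer than the limit of 38.8 set on the mean signal. For Rrm1 both vehicle arrays were also above the other groups, whereas for Mcm3 the other 3 groups overlapped.

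Rrm1 by 1448127_at fell by 2.40 ± 0.31 with DBZ (limma adjusted p = 0.00391), and the combination was above DBZ by 1.90 (adjusted p = 0.0473). Its interaction was 2.22 ± 0.40 (adjusted p = 0.0195), against 1.04 by the brightest probe set. Mcm3 by 1449705_x_at fell by 2.44 ± 0.36 with DBZ (adjusted p = 0.00593), with an interaction of 2.32 ± 0.46 (adjusted p = 0.0262) against 0.40 by the brightest. Both falls against vehicle held with each array left out in turn. Both interaction calls ended without combination 1, that of Mcm3 also without vehicle 2, dexamethasone 1 or combination 2, and the Rrm1 call of the combination against DBZ ended on leaving out any 1 of the 6 arrays beside DBZ. The Mcm3 call against DBZ ended in each such case except without dexamethasone 1. With no filter on signal both interaction calls ended (adjusted p = 0.0559 and 0.0707). Against dexamethasone, DBZ gave -2.08 for this Rrm1 probe set and -2.39 for that of Mcm3, each with limma adjusted p = 0.0456. The Rrm1 call ended on leaving out any 1 of the 6 arrays beside DBZ except dexamethasone 2, and that of Mcm3 without either dexamethasone or either combination array. Both also ended with quantile normalisation, no filter, no intensity trend and the replicate block.

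Other probe sets passed where the brightest did not. Cdt1 by 1424144_at fell by 1.46 with DBZ (limma adjusted p = 0.0129) and by 1.0 in the combination (adjusted p = 0.0230). Fen1 by 1421731_a_at fell by 1.33 with DBZ (adjusted p = 0.0389), where its brightest probe set gave -0.24. Mcm4 by 1436708_x_at fell by 1.17 with DBZ (adjusted p = 0.0471) and by 1.32 in the combination (adjusted p = 0.0147). Mcm7 by 1416031_s_at fell by 0.78 in the combination (adjusted p = 0.0415). Of these calls, the DBZ fall of Cdt1 held with each array left out, and each of the others ended without at least 1 array, among them vehicle 1 for Fen1 and combination 1 for those in the combination. Names ending in _x_at or _s_at mark probe sets that can detect other transcripts.

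**Figure D5:**
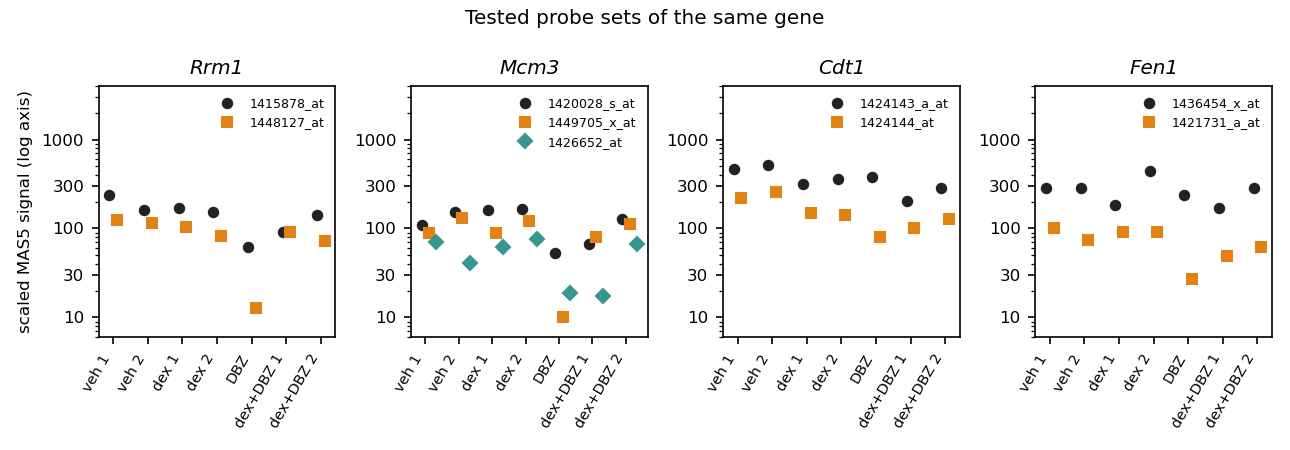
Scaled MAS5 signal on a log axis for each tested probe set of Rrm1, Mcm3, Cdt1 and Fen1 in the 7 arrays, one symbol per probe set. In the DBZ array 1448127_at of Rrm1 drops to 12.7 and 1449705_x_at of Mcm3 to 10.00, each below its own values in the other 6 arrays.

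Outside the members, the wider replication pathway was read from a list of 67 further genes, of which 55 were tested. With DBZ, 42 of these were lower, beside 51.5% of all genes, with a median of -0.52. Of the 55, 7 fell, beside 3.89% of all genes, and 0 rose. The 4 with the smallest p were the repressor E2f8 at -1.93 ± 0.39 (limma adjusted p = 0.0201), the single-strand binding subunit Rpa3 at -1.25, the E2F partner Tfdp1 at -1.10 and the chromatin remodeller Hells at -1.63. E2f8 read 143 and 206 with vehicle, 94.8 and 150 with dexamethasone, 36.0 with DBZ, and 34.2 and 59.6 in the combination. The list's calls numbered 2 without vehicle 1 and 1 without vehicle 2. Like Uhrf1, E2f8 was lower in every array given DBZ than in every other.

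In the combination 45 of the 55 were lower, beside 55.3% of all genes, with a median of -0.41. Over the 8094 genes 283 fell and 310 rose, and in this list 6 fell and 1 rose. The calls numbered 2 without vehicle 1, 1 without vehicle 2, 1 without combination 1 and 0 without combination 2. E2f8 fell by 1.67, the licensing inhibitor Gmnn by 1.03, Tfdp1 by 0.94 and Rpa3 by 0.97. The gene that rose was Ccnd2, cyclin D2, which acts in G1: it read 1325 and 842 with vehicle, 2197 and 2763 with dexamethasone, 1275 with DBZ, and 1826 and 2388 in the combination. Both groups given dexamethasone were above the arrays without it. Ccnd2 rose by 1.21 ± 0.24 with dexamethasone (limma adjusted p = 0.0119) and by 0.97 in the combination. Cdc25a, the phosphatase that activates the S phase kinase, fell by 0.77 with dexamethasone (limma adjusted p = 0.0315). Over all genes 5.29% fell and 6.93% rose with dexamethasone. Ccnd2 and Cdc25a were the only calls of the list there, and the list's median was 0.05. Without vehicle 2 neither held, and without dexamethasone 1, dexamethasone 2, combination 1 or combination 2 there was 1 call. The comparisons among treated groups and the interaction gave 0 calls in this list by limma. An unadjusted p under 0.05 was reached by 2 (combination against DBZ), 15 (combination against dexamethasone), 16 (DBZ against dexamethasone) and 7 (interaction) genes. The counts over all genes are given with each comparison above.

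Mitosis markers, which are other genes of dividing cells, were lower in the same arrays. Of 19 tested mitosis markers all were lower with DBZ, beside 51.5% of all genes, with a median of -1.15. The limma test was passed by 8 of them, beside 3.89% of all genes falling. In the combination all 19 were lower, beside 55.3% of all genes, with a median of -0.71. There 0 passed, beside 3.5% of all genes falling, and 9 markers had an unadjusted p under 0.05, beside 1962 of the 8094 genes. With dexamethasone their median was -0.01. Sums were taken over all markers with a probe set, tested or not, which were 22 for mitosis. The summed signal of these 22 was 4222 and 3167 with vehicle, 3144 and 4090 with dexamethasone, 1623 with DBZ, and 1798 and 2993 in the combination. The arrays thus stood in the same order as by the member medians, except that DBZ and combination 1 changed places. The 11 crypt stem cell markers with a probe set summed to 2359 and 1576 with vehicle, 3880 and 1890 with dexamethasone, 1610 with DBZ, and 1285 and 1697 in the combination. The brightest genes dominate these sums, and Prom1 alone read 2462 in dexamethasone 1. Gene by gene, 6 of the 9 tested were lower and 3 higher with DBZ, beside 51.5% of all genes lower, with a median of -0.69. In the combination 8 were lower and 1 higher, beside 55.3% of all genes lower, with a median of -0.55. With dexamethasone 4 were lower and 5 higher, beside 47.9% of all genes lower. In DBZ and the combination against vehicle 0 of 9 passed, beside 3.89% and 3.5% of all genes falling. In each, 3 had an unadjusted p under 0.05, beside 2078 and 1962 of the 8094 genes.

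Markers of other tissue layers differed between vehicle and treated arrays. These sums also take in every marker with a probe set, tested or not, such as 10 T cell and 8 B cell and germinal centre markers. Smooth muscle markers (9 of 10 tested) summed to 13097 and 9831 with vehicle and to 17982 to 27141 in the treated arrays. Fibroblast and matrix markers (11 of 11 tested) summed to 6664 and 3845 with vehicle and to 10236 to 12221 in the treated arrays. The dexamethasone arrays held sums of 27141 and 19458 for smooth muscle. The part of either marker group in the results against vehicle was not tested. Ileal position markers (7 of 8 tested) summed to 2055 and 2408 with vehicle and to 9473 to 24643 in the treated arrays, and what position along the gut contributes was not tested. T cell markers (4 of 11 tested) summed to 1465 and 1731 with vehicle and 516 to 633 in the treated arrays. B cell and germinal centre markers (4 of 10 tested), which mark another dividing population, were highest in the DBZ array at 608 against 173 to 483 elsewhere. Paneth cell markers (4 of 6 tested) were lowest in the DBZ array at 6414, next in combination 1 at 8269, and 10467 to 16665 elsewhere, and their part was likewise not tested.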

How the data were processed

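The authors deposited 1 table of intensity values, made with MAS5 per the submitters' processing notes; the version and scaling target are not given in the sources used here. It held 22690 probe sets in 8 columns, with 0 columns unused and no detection calls. Probe sets were named from the platform's annotation: 20393 carried 1 symbol, 691 several and 1606 none. All arrays were brought to one trimmed mean, 250, after trimming 2% from either end. The values tested were log2(signal + 12.3), where 12.3 is percentile 20 of all signals. The 64 controls and any probe set averaging below 38.8 (percentile 40) were dropped, and 13638 stayed. limma 3.58.1 (R 4.3.3) fitted 4 group means over 7 arrays (intensity trend, 3 residual and 6.83 prior degrees of freedom). The planned 2 DBZ arrays became 1, their mean.

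The fit was tested on simulated data. Named were all members, with full statistics for members past the threshold and the 2 largest changes that did not pass, and the 4 wider pathway genes of smallest p without overlap. Lig1, Rfc3, Slbp, Pcna and Chaf1b were given in full after their values were seen. The members and lists were chosen with earlier results of these data known. Alternatives were other scalings, pseudocounts, filters, variance models, probe set rules and fits, and each array left out. The number of arrays limits the precision.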

Additional observations from a re-analysis of the deposited data

Results flagged for a closer look

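The change with DBZ differed with and without dexamethasone for 2 probe sets by a test of the difference itself. For Rrm1 by 1448127_at the difference was 2.22 ± 0.40 on the log2 scale (limma adjusted p = 0.0195): the DBZ array read 12.7 against 114 and 124 with vehicle, and the combination 71.9 and 90.8 against 83.3 and 104 with dexamethasone. For Mcm3 by 1449705_x_at it was 2.32 ± 0.46 (adjusted p = 0.0262), with 10.00 in the DBZ array. Without combination 1 the values were 2.06 (adjusted p = 0.0858) and 2.50 (adjusted p = 0.0794). With no filter both calls ended (adjusted p = 0.0559 and 0.0707), and that of Mcm3 also without vehicle 2, dexamethasone 1 or combination 2 and with a pseudocount 4 times as high (adjusted p = 0.0573). The DBZ readings are near the pseudocount of 12.3, and the differences ranged from 1.31 (higher pseudocount) to 2.93 (pseudocount of 1) for Rrm1 and from 1.33 to 3.18 for Mcm3. Both rest on a single dim value in the lone DBZ array, and the brightest probe sets of these genes gave 1.04 and 0.40 without passing.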

How the results depend on the processing

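The signals as deposited put both vehicle arrays at double scale, which moved the all-gene median to -0.97 (DBZ), -0.93 (dexamethasone) and -1.0 (combination) against vehicle. Member calls then came to 31, 25 and 31, and 17 for the interaction, with member medians of -1.67, -1.04, -1.47 and 1.24; wider pathway calls came to 47, 44, 52 and 25. Taken relative to the all-gene shift, the DBZ and combination medians stayed below 0. Lig1 with dexamethasone reversed to -0.33 there.

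Against vehicle, members called with DBZ numbered 4 in the reported fit, 0 with no filter and 7 with only the groups compared. Wider pathway calls there (7 reported) were 0 with no filter and 2 with no intensity trend. With dexamethasone the wider calls (2 reported) were 1 with no filter, 1 with no trend and 1 with only the groups compared. In the combination the wider calls (7 reported) were 3 with no filter. Both DBZ columns as separate arrays, which counts 1 array as 2, gave 16, 2, 2, 8 and 3 member calls for DBZ, dexamethasone, combination against DBZ, DBZ against dexamethasone and the interaction, and 22, 4, 12, 11 and 3 wider calls for DBZ, dexamethasone and the combination against vehicle, DBZ against dexamethasone and the interaction. The mean of a gene's probe sets gave 1 interaction call.

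With the replicate block the DBZ calls were 1 member and 2 wider genes, and the combination 4 wider genes. Replicate differences correlated at 0.05 (vehicle, dexamethasone), -0.12 (vehicle, combination) and 0.12 (dexamethasone, combination), so the numbers did not pair the arrays.

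Leaving out each array in turn, member calls ranged from 0 to 4 with DBZ and from 0 to 3 in the combination, and wider calls from 1 to 7 and 0 to 2 with DBZ and dexamethasone and from 0 to 6 in the combination (7 without the DBZ array). All 4 DBZ calls ended without vehicle 1. Member medians ranged from -0.76 to -0.67 with DBZ, -0.24 to 0.04 with dexamethasone, -0.84 to -0.31 in the combination, -0.06 to 0.30 for the combination against DBZ, -0.73 to -0.17 for the combination against dexamethasone, -0.79 to -0.53 for DBZ against dexamethasone and 0.02 to 0.41 for the interaction. The cause of these moves was not tested. Single-gene values under alternatives were taken for members with an unadjusted p under 0.05 in a comparison of the reported fit. Most of these had not passed the adjusted threshold there. Of 1198 such values, 1095 kept direction and side of the threshold, 66 newly passed, 36 no longer passed and 1 reversed. Keeping the side thus mostly means staying uncalled, and only called members could be among the 36. Fits without vehicle arrays, and the count of lowest arrays under other scalings (DBZ 14 and 13, combination 1 15 and 11, as deposited and with quantile normalisation), were chosen after seeing the data.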
